A study of Mus musculus with 21 samples.

Results

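H19, Igf2, Dlk1, Meg3, Rian and Mirg are the 6 genes described here, out of 49997 genes of the mouse GRCm38.p6 table. They were chosen by name, as imprinted growth and long noncoding RNA genes of muscle at the H19 to Igf2 and the Dlk1 to Mirg locus, and each was searched for peaks within 1 kb of its span in every list. The libraries came from C2C12, a mouse myoblast line, profiled by CUT&RUN, in which an antibody directs the cutting and release of the DNA around its target. Antibodies to PSME3, a regulator of the proteasome, and to H3K4me3, a histone mark of active promoters, were used. Cycling cells were grown in 20% fetal bovine serum and frozen in 10% DMSO without fixation, with 3 replicates for each antibody. Day 2 cells had spent 48 h in 2% horse serum, with 1 library for each antibody in each of 4 preparations: fresh crosslinked, fresh native, frozen crosslinked and frozen native. Crosslinked cells were fixed in 0.1% formaldehyde for 5 min, and the frozen ones were kept in 10% DMSO. Of 21 libraries, the 14 with PSME3 or H3K4me3 were used, with the authors' 2 pooled lists of cycling cells, while IgG (7 libraries) was not analysed here. The study describes its cycling replicates as biological, and each day 2 preparation was a single library, so the day 2 spread also holds the differences between preparations.

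Imprinted genes are expressed from 1 parental copy. At the first locus the maternal copy gives H19, a noncoding RNA that holds a microRNA, and the paternal copy gives Igf2, a growth factor of fetal tissue and muscle. A control region upstream of H19, methylated on the paternal copy and bound by CTCF on the unmethylated maternal copy, decides between them. At the second locus the paternal copy gives Dlk1, a transmembrane protein of the Notch ligand family, and the maternal copy gives the noncoding RNAs Meg3, Rian and Mirg, hosts of many small nucleolar RNAs and microRNAs. These peak lists do not tell the parental copies apart.

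H19 was the only one of the 6 members with a peak. It carried H3K4me3 in 7 of 7 libraries and PSME3 in 0 of 7 and not in the pooled list, like 17.0% of all genes. Igf2, Dlk1, Meg3, Rian and Mirg had no peak within 1 kb in any of the 16 lists, like 59.1% of all genes.

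The mature microRNAs of the hosts are shown first, because they mark which transcribed products lay under a peak. The 6 gene spans held 17 hairpins with 32 mature sequences of RefSeq: 1 hairpin in H19, 1 in Igf2, 2 in Meg3, 3 in Rian, 10 in Mirg and 0 in Dlk1. The hairpin of miR-675 in H19, at chr7:142577064-142577147 on the minus strand, lay under an H3K4me3 peak in 7 of 7 libraries, and none of the other hairpins lay under a peak in any list. The pair of H19 and the pair of Igf2, from the 2 neighbouring genes that differed in H3K4me3, are given with bases 2 to 8, the seed, in capitals.
miR-675-5p (H19): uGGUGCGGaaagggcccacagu
miR-675-3p (H19): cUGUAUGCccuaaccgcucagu
miR-483-5p (Igf2): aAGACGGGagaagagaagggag
miR-483-3p (Igf2): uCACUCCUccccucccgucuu
The 4 seeds differ. The only seed shared by 2 of the 32 mature sequences was that of miR-453 and miR-496a-5p, both hosted by Mirg, which had no peak in any list.
miR-453 (Mirg): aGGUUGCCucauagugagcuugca
miR-496a-5p (Mirg): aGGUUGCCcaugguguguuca

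The promoter windows of RefSeq cover 250 bases before a transcription start and 50 after it. Of the 6 members 5 matched, with 9 windows, and H19 had no entry. None of the 9 windows overlapped a peak of any list. The windows with the most CpG dinucleotides of Igf2, Meg3 and Dlk1 are printed because CpG-rich promoters usually carry H3K4me3, and the capitals mark every CpG (GRCm38.p6). The Igf2 window lies at chr7:142658755-142659054 on the minus strand, the Meg3 window at chr12:109540746-109541045 and the Dlk1 window at chr12:109452573-109452872, both on the plus strand.
Igf2: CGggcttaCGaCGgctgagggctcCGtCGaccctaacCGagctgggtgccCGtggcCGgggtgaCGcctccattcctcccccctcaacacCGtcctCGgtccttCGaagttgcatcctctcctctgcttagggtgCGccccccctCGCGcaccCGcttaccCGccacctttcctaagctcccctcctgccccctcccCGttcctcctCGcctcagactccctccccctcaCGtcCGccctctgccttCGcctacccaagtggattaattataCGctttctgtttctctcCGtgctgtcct
Meg3: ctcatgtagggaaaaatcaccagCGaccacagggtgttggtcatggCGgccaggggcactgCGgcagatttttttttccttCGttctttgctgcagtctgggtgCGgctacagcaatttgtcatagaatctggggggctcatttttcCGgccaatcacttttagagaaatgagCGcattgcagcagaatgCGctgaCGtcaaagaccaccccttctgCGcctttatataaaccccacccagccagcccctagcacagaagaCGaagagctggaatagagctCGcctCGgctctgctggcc
Dlk1: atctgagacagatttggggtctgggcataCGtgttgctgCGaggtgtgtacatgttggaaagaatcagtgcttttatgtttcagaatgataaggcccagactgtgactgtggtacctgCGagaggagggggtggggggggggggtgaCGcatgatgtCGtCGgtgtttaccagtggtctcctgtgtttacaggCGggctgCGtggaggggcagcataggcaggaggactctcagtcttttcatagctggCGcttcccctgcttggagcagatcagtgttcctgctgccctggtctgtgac
The Igf2 window holds 24 CpG dinucleotides, the Meg3 window 13 and the Dlk1 window 9. In the same build and length there were 32851 windows, with a median of 7 CpG, of which 40.7% overlapped a pooled cycling H3K4me3 peak and 57.7% overlapped none in the 7 H3K4me3 libraries.

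No H3K4me3 peak was called in Igf2 and Meg3 windows as CpG-rich as windows that often carry one. Of the 2491 windows with a CpG count within 2 of the 24 in Igf2, 88.2% overlapped a pooled H3K4me3 peak, and 11.3% overlapped none in any library. A second Igf2 window with 14 CpG, at chr7:142661222-142661521, also had no peak, where 66.9% of windows of like CpG count had one. Of the 2753 windows like that of Meg3, 62.7% had a pooled peak and 35.9% had none in any library. For Dlk1 and for Mirg, with 10 CpG, the shares were 33.2% and 39.9%, and for Rian, with 0 CpG, 3.29%. The remaining windows of Igf2, with 7 and 2 CpG, matched windows with shares of 21.2% and 5.17%, and the second window of Meg3, with 1 CpG, windows with a share of 4.09%. The letters TATAAA, on either strand, were found in the Meg3 window alone of the 9 and in 13.6% of all windows. The letters TGACGTCA, the cAMP response element, were also found in the Meg3 window alone and in 1.79% of all windows. The letters CAGCTG, an E-box, were in 0 of 9 member windows and in 16.3% of all windows. These motifs were chosen after the sequences were seen, and a match is a description only.

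**Figure D1:**
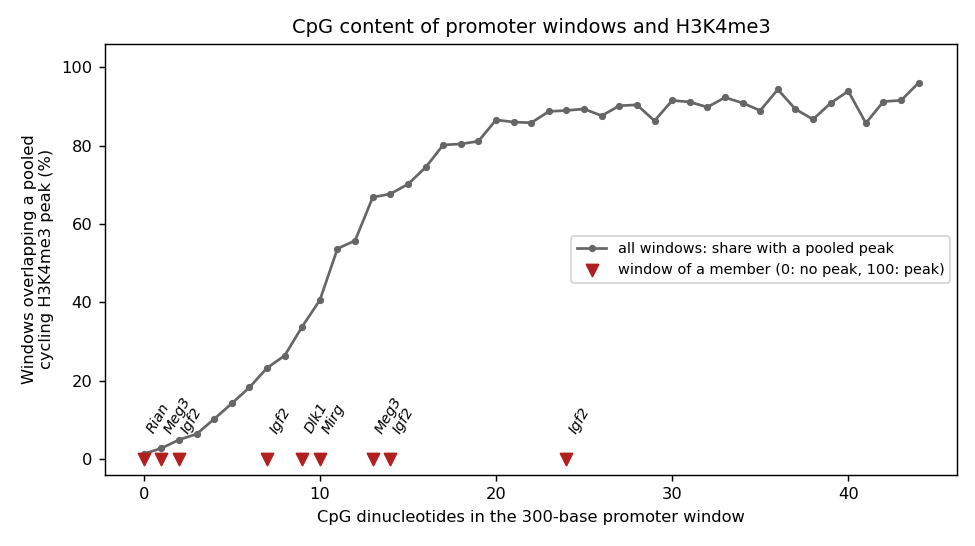
Share of all promoter windows (%) that overlap a pooled cycling H3K4me3 peak, by the number of CpG dinucleotides in the window (grey line, counts with at least 100 windows), with the 9 windows of members as triangles at 0 because none overlaps a peak. The Igf2 window with 24 CpG sits where 88.2% of windows of like CpG count have a peak.

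The lists differed in length, and every count of members is read against the share of all 49997 genes with a peak within 1 kb in the same list. For cycling H3K4me3, 1 of 6 members had a peak in each replicate, with 33.5%, 38.7% and 34.0% of all genes in replicates 1, 2 and 3, and 35.9% in the pooled list. For day 2 H3K4me3, 1 of 6 members had a peak in each preparation, with 32.5% of genes in the fresh crosslinked library, 30.0% in the fresh native, 32.6% in the frozen crosslinked and 31.6% in the frozen native. For PSME3, 0 of 6 members had a peak in any list, with 2.50%, 1.93% and 7.14% of genes in cycling replicates 1, 2 and 3 and 11.8% in the pooled list. On day 2 the PSME3 libraries reached 0.0820% of genes in the fresh crosslinked preparation, 0.0900% in the fresh native, 0.252% in the frozen crosslinked and 0.554% in the frozen native, so that 6 genes without a peak are close to the background. Cycling H3K4me3 replicate 2 stood apart, with 40999 peaks of a median width of 662 bp and a median fold enrichment of 2.82, against 18077 and 19365 peaks, 1781 and 1784 bp and 12.1 and 11.5 in replicates 1 and 3. The read depth behind the lists is unknown. Myoblast markers had H3K4me3 in all 7 libraries for 5 of 6 genes (Myod1, Myf5, Des, Cdh15 and Chrna1), and the differentiation factor Myog had it in 0 of 3 cycling and 4 of 4 day 2 libraries. Of 10 markers of other cell types, the blood genes Ptprc, Cd3e and Hbb-bs, the liver gene Alb and the endothelial gene Cdh5 had none. Tubb3 of neurons was marked in all 7 libraries, Apoa1 of liver in 3 of 3 cycling and 0 of 4 day 2 libraries, Pecam1 of endothelium in 2 and 1, Neurod1 in 1 and 1 and Rbfox3 in 1 and 0, and the part of such marks in the results was not tested.

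In cycling cells the question was whether PSME3 lay at the members that H3K4me3 marked. Each of the 3 H3K4me3 replicates had 1 member with a peak and each of the 3 PSME3 replicates had 0, so the groups did not overlap. The exact permutation test gave p = 0.1 (two-sided), the smallest that 3 libraries against 3 allow. When each H3K4me3 list was shortened to the peaks with the smallest q-values, as many as PSME3 had in the same replicate (1200, 776 and 3070), H19 was lost and both antibodies had 0 members. By q-value the H19 peak stood at percentiles of 21.6, 72.3 and 38.9 in replicates 1, 2 and 3, so lists this short could not hold it. That setting therefore cannot show whether a PSME3 peak could have been called at H19. A PSME3 count of 0 does not show that PSME3 was absent. H19 shares the pattern of H3K4me3 in all 7 libraries and PSME3 in no library or pooled list with 17.0% of all genes. Of the 14431 genes with H3K4me3 in all 7 libraries, 37.5% had a pooled PSME3 peak, but among the 1424 genes whose strongest pooled H3K4me3 peak was within 5 percentile points of that of H19 the share was 14.8%. Among the 5098 genes whose strongest pooled H3K4me3 peak had a width within 20% of that at H19 it was 41.0%, so the share depended on how like genes were chosen. The other 5 members belong to the 59.1% of genes with no peak in any of the 16 lists. Among 12731 lncRNA genes 65.3% had no peak and 16.2% had H3K4me3 in all 7 libraries, against 34.0% and 53.2% of 21900 protein-coding genes.

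The H3K4me3 peak at H19 covered most of the gene, from 60.7% of the span in the fresh native library to 100% in cycling replicate 3, and did not reach the 5′ end in 3 of 7 libraries. H19 spans chr7:142575530-142578146, and its 5′ end is at the higher coordinate, since its microRNA lies on the minus strand. The stretch covered in 7 of 7 libraries, chr7:142576335-142577908, is 1574 bp long, begins 238 bp inside the 5′ end, makes up 60.1% of the span and holds the miR-675 hairpin. In cycling cells the gene peak had a fold enrichment of 4.26, 4.02 and 5.60 in replicates 1, 2 and 3. On day 2 it had 4.22 in the fresh crosslinked, 3.82 in the fresh native, 5.20 in the frozen crosslinked and 7.10 in the frozen native library. The lowest and the highest value were both from day 2, and the stages overlapped. Fold enrichment is the authors' ratio over background within one list, so its rank in the list is compared below. The frozen crosslinked library had a small additional peak of fold 2.83 at chr7:142575129-142575278, past the 3′ end.

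**Figure D2:**
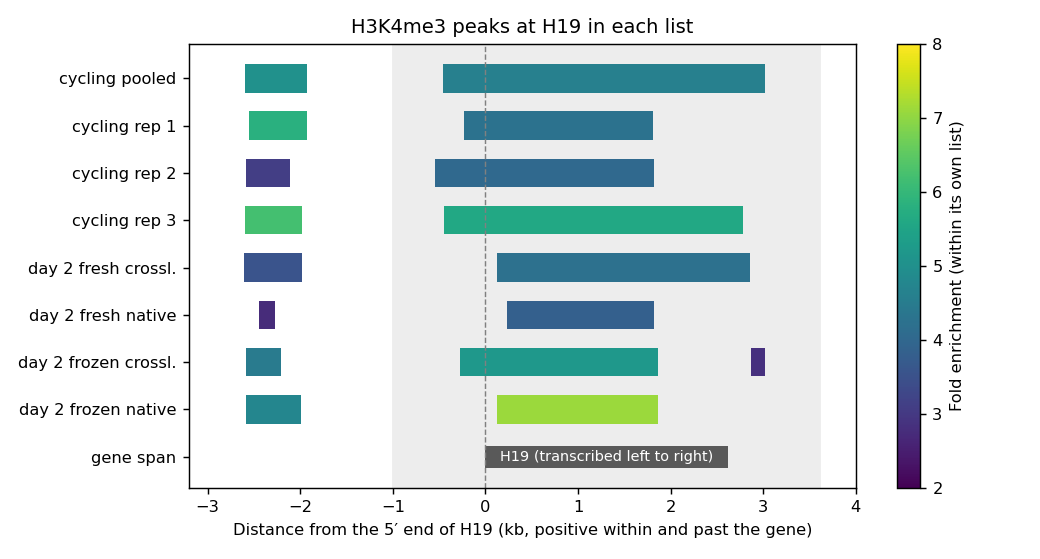
H3K4me3 peaks (bars) in the pooled cycling list and the 7 libraries, by distance in kb from the 5′ end of H19, with the gene as a grey bar, the 1 kb window shaded and colour for fold enrichment. A gene peak and a separate peak about 2 kb upstream are seen in every list, and the gene peak starts upstream of the 5′ end in the 3 cycling libraries and in 1 of 4 day 2 libraries.

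The length covered at H19 was 2040, 2367 and 3226 bp in cycling replicates 1, 2 and 3. On day 2 it was 2742 bp in the fresh crosslinked, 1588 bp in the fresh native, 2283 bp in the frozen crosslinked and 1737 bp in the frozen native library. The stages overlapped, and the native day 2 libraries were the lowest of all 7. Cycling libraries averaged 2544 ± 613 bp (SD, n = 3), against 2088 ± 529 bp (SD, n = 4) on day 2, so that they differed by 457 bp (exact permutation test, two-sided, p = 0.343; the smallest possible p is 0.0571). Without cycling replicate 3 the difference was 116 bp, and within the gene span alone it was 164 bp. Of all 14431 genes with a peak in all 7 libraries, 38.7% had covered lengths that did not overlap between the stages. On day 2 the crosslinked library covered 1154 bp more than the native one in fresh cells and 546 bp more in frozen cells, a direction shared by both but without replicates. All cycling cells were frozen and native, and the frozen native day 2 library, the matched preparation, was below all 3 cycling values.

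The gene peak ended beyond the 5′ end of H19 by 228, 542 and 442 bp in cycling replicates 1, 2 and 3. On day 2 it reached 271 bp beyond it in the frozen crosslinked library and stopped short of it, at -121 bp, -238 bp and -129 bp, in the fresh crosslinked, fresh native and frozen native libraries. The frozen crosslinked value exceeded that of cycling replicate 1, so the stages overlapped. The difference of means was 458 bp, from 404 ± 160 bp (SD, n = 3) to -54.3 ± 223 bp (SD, n = 4), with p = 0.114 by the exact permutation test and 0.257 after Benjamini-Hochberg adjustment over the 3 measures at H19 that were chosen after the data were seen.

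The gene peak of H19 ranked below the middle of its list in 6 of 7 libraries. As a percentile of fold enrichment among all peaks of its list, it stood at 23.5, 72.3 and 39.4 in cycling replicates 1, 2 and 3. On day 2 it stood at 45.9, 28.9, 48.0 and 32.1 in the fresh crosslinked, fresh native, frozen crosslinked and frozen native libraries. Replicate 2 gave the highest and replicate 1 the lowest value, and the stages overlapped. The cycling mean of 45.0 ± 24.9 (SD, n = 3) exceeded the day 2 mean of 38.7 ± 9.62 (SD, n = 4) by 6.31 percentile points (exact permutation test, two-sided, p = 0.686), where 17.6% of genes with peaks in all 7 libraries did not overlap between stages. The direction turned without replicate 2, to -7.31. It also turned when every list was shortened to the 14372 peaks of the shortest one: cycling percentiles were then 3.75, 20.9 and 18.3 and day 2 percentiles 24.0, 28.9, 26.8 and 27.1, which did not overlap, at the smallest p possible of 0.0571 (exact permutation test) and with all cycling libraries below day 2 in 9.75% of 14196 genes.

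A separate H3K4me3 peak lay upstream of H19 in 7 of 7 libraries and the pooled list. It was in no gene of the table and more than 1 kb from every member, so it does not count for a member. It began between 1.92 and 2.27 kb beyond the 5′ end, and the part covered in all 7 libraries was chr7:142580420-142580595, of 176 bp. Its fold enrichment was 5.82, 3.08 and 6.20 in cycling replicates 1, 2 and 3, and 3.55, 2.73, 4.47 and 4.75 in the fresh crosslinked, fresh native, frozen crosslinked and frozen native libraries. Cycling replicates 1 and 3 gave the highest values, and replicate 2 lay among the day 2 values. In the fresh native library it was narrow, 176 bp, with a q-value of 0.0546. As a percentile of its list, the upstream peak stood at 33.4, 62.1 and 41.2 in cycling replicates 1, 2 and 3 and at 41.2, 8.95, 44.9 and 23.7 in the day 2 libraries in the same order. Replicate 2, the lowest cycling library by fold enrichment, was the highest of all 7 by percentile, and the stages overlapped. The percentile averaged 45.6 ± 14.9 (SD, n = 3) in cycling and 29.7 ± 16.6 (SD, n = 4) in day 2 libraries, a difference of 15.9 (exact permutation test, p = 0.286), which was 7.61 without cycling replicate 2 and 8.98 without the fresh native library. This rank depends on list length: with every list shortened to 14372 peaks, the upstream peak dropped out of replicate 2, stood at 16.2 and 20.8 in replicates 1 and 3 and at 17.4, 8.95, 22.4 and 18.1 in the 4 day 2 libraries in the same order, and the stages overlapped.

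The upstream peak was also compared with the gene peak of the same list, as a ratio of their fold enrichments, in which a common multiplying factor cancels but a difference in background need not. On the log2 scale it was 0.45, -0.38 and 0.15 in cycling replicates 1, 2 and 3. It was -0.25, -0.49, -0.22 and -0.58 in the fresh crosslinked, fresh native, frozen crosslinked and frozen native libraries. The upstream peak was the stronger one in replicates 1 and 3 and in the pooled list, at 0.13, and the weaker one in replicate 2 and all 4 day 2 libraries. The cycling mean of 0.07 ± 0.42 (SD, n = 3) was above the day 2 mean of -0.38 ± 0.18 (SD, n = 4) by 0.45 (exact permutation test, two-sided, p = 0.171, adjusted p = 0.257 over the 3 measures). The smallest p possible for these libraries is 0.0571, so no difference could have passed 0.05. Without replicate 2 the difference was 0.68 and the stages did not overlap, at p = 0.133, the smallest that 2 against 4 libraries allow by exact permutation. Without replicate 1 it was 0.27, with overlap of the stages (exact permutation, p = 0.4). The crosslinked library was above the native one by 0.24 in fresh and 0.36 in frozen cells.

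**Figure D3:**
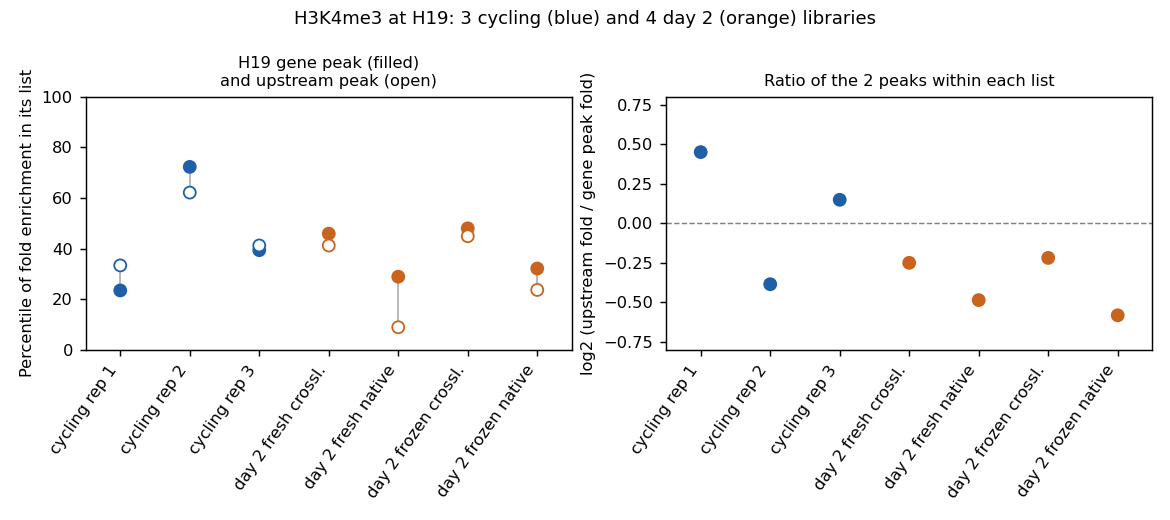
Left, percentile of fold enrichment within its own list for the H19 gene peak (filled) and the upstream peak (open); right, log2 ratio of the upstream to the gene peak; each point is 1 of 3 cycling (blue) or 4 day 2 (orange) libraries. The gene peak ranges from 23.5 to 72.3 in cycling libraries and from 28.9 to 48.0 on day 2, and the ratio is above 0 in cycling replicates 1 and 3 only.

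Over the 7 libraries, the genes whose percentile was most like that of H19 were the lncRNA gene AU021063, with a mean absolute difference of 1.88 percentile points, Sdr39u1 with 2.25 and the lncRNA gene Gm32099 with 2.45. The other 5 members, at 0 in all 7 libraries, share that with 59.4% of genes, so no gene was nearer to them than the rest.

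Igf2 lies 72.6 kb from H19, at chr7:142650768-142666816, and the peak nearest to it was the one upstream of H19. That peak was 70.0 to 70.2 kb from Igf2 in the 7 H3K4me3 libraries, and on the other side the nearest was at Tspan32. The span of Igf2 and the Gm33148 gene between it and H19 held no peak. The nearest PSME3 peak to Igf2 was 403, 882 and 3262 kb away in cycling replicates 3, 1 and 2, and 3262 kb or further on day 2. For H19 the PSME3 distances were 971, 3187 and 491 kb in replicates 1, 2 and 3 and 104 kb in the pooled list, at an Lsp1 peak that no single library had. That peak was 179 kb from Igf2. With as many H3K4me3 peaks as PSME3 peaks in each replicate, the median distance to H3K4me3 was 982 kb for Igf2 and 1070 kb for H19. The medians to PSME3 were 882 and 971 kb. In replicate 3 H3K4me3 was then the nearer one, at 262 kb from Igf2 and 187 kb from H19.

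The 4 members on chromosome 12 shared a stretch without any peak. From 1 kb below Dlk1 to 1 kb past Mirg, 299 kb in all, no list had a peak. The stretch holds 89 genes, with 60 microRNA, 19 small nucleolar RNA, 6 lncRNA and 2 protein-coding genes among them, Dlk1 and Rtl1 being the protein-coding ones. Over the genome 73.6% of microRNA genes and 65.3% of lncRNA genes had no peak in any list. Of 8791 tiles of 299 kb on the genome, 36.7% had no peak in any of the 16 lists, and of the 1763 tiles with 10 genes or more, 12.5% had none. Those tiles were not matched for the type of gene. The nearest H3K4me3 peak lay 108 to 550 kb from Dlk1 (chr12:109452485-109463336), with a median of 385 kb over the 7 libraries. For Meg3 (chr12:109540996-109571729) the distance was 197 to 638 kb, for Rian (chr12:109603945-109661716) 260 to 701 kb, and for Mirg (chr12:109734981-109749458) 338 to 697 kb. The lowest values for Dlk1, Meg3 and Rian came from 1 day 2 library, fresh native, through a peak in no gene. Cycling replicates were close to each other at Dlk1, between 384 and 385 kb, where the nearest peak was at Begain. The median distance to PSME3 over cycling libraries was 983 kb for Dlk1, 875 kb for Meg3, 785 kb for Rian and 697 kb for Mirg. The PSME3 lists were far shorter, and with as many H3K4me3 peaks as PSME3 peaks in each replicate the median distances to H3K4me3 were 1021, 913, 823 and 735 kb, no less than those to PSME3. In replicates 1 and 2 H3K4me3 was then the farther one for all 4 members. In replicate 3 it was nearer for Dlk1, Meg3 and Rian, at 557, 646 and 709 kb against 660, 748 and 785 kb for PSME3, and farther for Mirg.

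**Figure D4:**
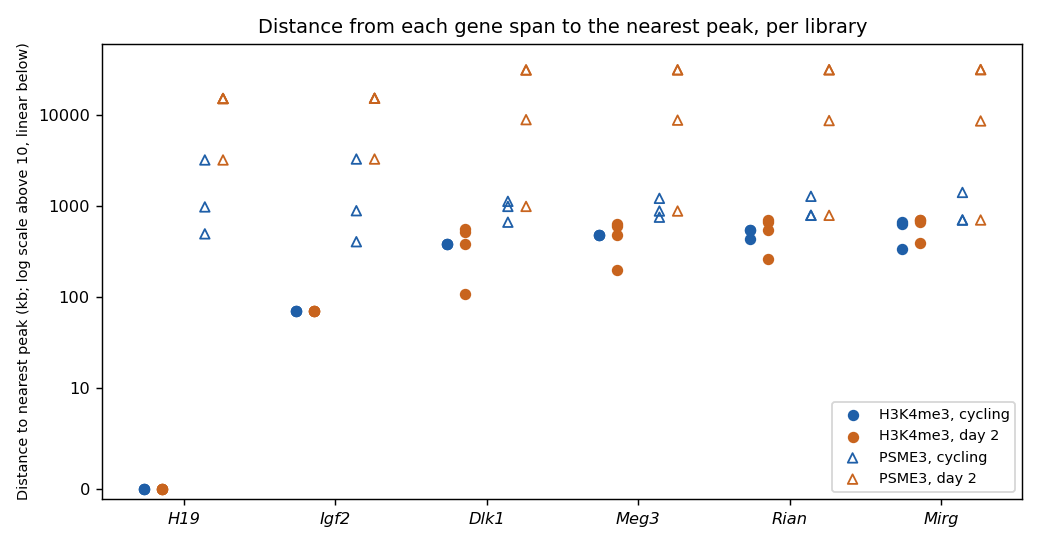
Distance in kb (log scale above 10, linear below) from the span of each member to the nearest peak, for H3K4me3 (filled circles) and PSME3 (open triangles) in each cycling (blue) and day 2 (orange) library. H19 is at 0 for H3K4me3 in all 7 libraries, Igf2 is near 70 kb, and the 4 members on chromosome 12 are at 108 kb or more.

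Genes around the members were marked, in part at one stage only. Of 27 neighbouring genes of both loci, 13 had H3K4me3 in all 7 libraries and 7 in none (Ins2, Th, Ascl2, Slc22a18, Rtl1, Dio3 and Dio3os), against 28.9% of all genes and 53.2% of protein-coding genes in all 7, and 59.4% of all genes in none. Nearly all of these neighbours are protein-coding. Tnnt3, a fast muscle troponin gene 59.3 kb from H19, had no H3K4me3 peak in the 3 cycling libraries and covered lengths of 1526, 1475, 1650 and 2600 bp in the fresh crosslinked, fresh native, frozen crosslinked and frozen native day 2 libraries. Those groups did not overlap, and 0.0920% of all genes had a peak in 0 of 3 cycling and 4 of 4 day 2 libraries. Tnni2, the fast troponin gene 131 kb from H19, had a peak in 0 of 3 cycling and 3 of 4 day 2 libraries. It covered 356 bp in the fresh crosslinked, 1193 bp in the frozen crosslinked and 183 bp in the frozen native library. The frozen native peak stood at a percentile of only 0.933, and the fresh native library had none. The adjacent gene Syt8, a synaptotagmin gene, had a peak in 0 of 3 and 2 of 4 libraries, both crosslinked. Its strongest peak there had the same percentile as that of Tnni2, so both genes are counted from the same signal. All cycling cells were native, and the part of crosslinking in these peaks was not tested. Phlda2, an imprinted growth restrictor of placenta, had the pattern opposite to that of Tnnt3. It covered 1074, 646 and 494 bp in cycling replicates 1, 2 and 3 and 0 on day 2. Of all genes, 0.886% had a peak in 3 of 3 cycling and 0 of 4 day 2 libraries. Begain was marked in 3 of 3 cycling libraries, with 975, 582 and 277 bp in replicates 1, 2 and 3, and in 1 of 4 day 2 libraries. That library was frozen native, the preparation matched to the cycling cells, with 395 bp, so Begain was not lost in the matched preparation. H19 lay between Tnnt3 and Igf2 and had its peak at both stages. These genes were looked at with earlier results known, and no test over the list was made.

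**Figure D5:**
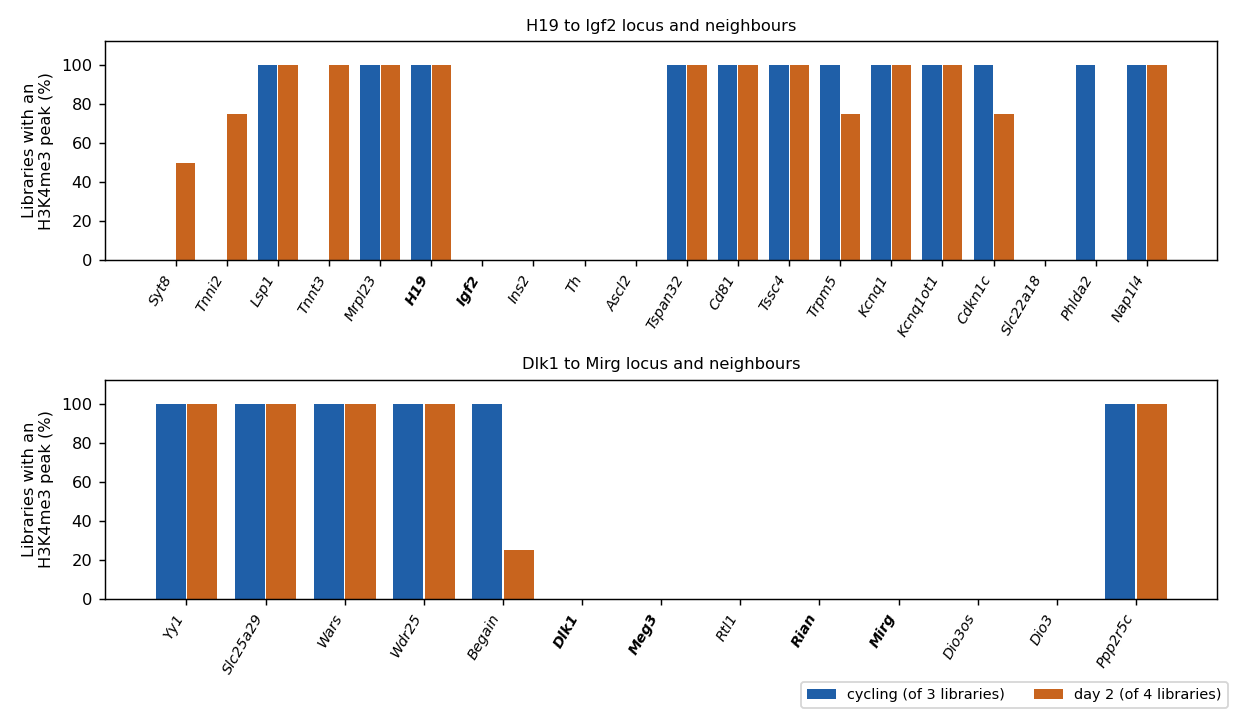
Share of libraries (%) with an H3K4me3 peak within 1 kb of each gene, in order along the chromosome, for 3 cycling (blue) and 4 day 2 (orange) libraries; members are in bold. H19 stands at 100% at both stages, Tnnt3 at 0 of 3 and 4 of 4 libraries, and all 4 members of the second locus at 0.

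PSME3 reached 4 of these 27 neighbours in the pooled list, which reached 11.8% of all genes and 21.9% of protein-coding genes. They were Ppp2r5c, a subunit of a protein phosphatase, with a fold enrichment of 3.74 and a peak in 2 of 3 cycling replicates and 1 day 2 library, Lsp1 with 3.15, the transcription factor gene Yy1 with 2.94, and Nap1l4, a histone chaperone, with 2.51. Yy1 and Nap1l4 had a PSME3 peak in 1 of 3 cycling replicates and Lsp1 in 0, and none of the 3 had one on day 2. All 4 had H3K4me3 in all 7 libraries. Tssc4, another of the 27, had a PSME3 peak in 1 of 3 cycling replicates but none in the pooled list.

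Most genes of insulin-like growth factor signalling were marked. Of 19, 15 had H3K4me3 in all 7 libraries, against 28.9% of all genes and 53.2% of protein-coding genes, among them the receptors Igf1r, Igf2r and Insr, the ligand Igf1, the adaptors Irs1 and Irs2, and Akt1 and Akt2. Igfbp1, a binding protein of liver, had none, and Igf2bp1 had a peak in 1 of 3 cycling and 0 of 4 day 2 libraries. PSME3 was at 6 of the 19 in the pooled list, which reached 11.8% of all genes, 21.9% of protein-coding genes and 37.5% of genes with H3K4me3 in all 7 libraries. They were Irs2 with a fold enrichment of 3.23, Irs1 with 2.90, the RNA-binding protein genes Igf2bp2 with 2.86 and Igf2bp3 with 2.75, Pik3r1 with 2.73 and Igfbp6 with 2.28. Irs1 and Irs2 had a peak in 2 of 3 cycling replicates, Igfbp6 in 1, and Igf2bp2, Igf2bp3 and Pik3r1 in 0, and none of the 19 had one on day 2. Igfbp7 had a PSME3 peak in 1 of 3 cycling replicates but none in the pooled list. The 9 genes that keep or set imprints all had H3K4me3 in all 7 libraries, and Trim28, Ctcf and Kdm1b had pooled PSME3 peaks with fold enrichments of 2.83, 2.82 and 2.52, in 0, 1 and 1 of 3 cycling replicates. Of all genes with H3K4me3 in all 7 libraries, 37.5% had a pooled PSME3 peak.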

How the data were processed

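Reads were trimmed with Trim Galore, aligned with Bowtie2 and called with MACS2 by the authors, on mm10 per the submitters' processing notes (versions, options and control library are not given in the sources used here). The deposited lists have the layout of broad peaks, with a fold enrichment per peak, which is a ratio over estimated background. They also hold 2 deposited −log10 columns, for p-values and q-values, and every q-value is under 0.1. A deeper library can pass that threshold at weaker sites, and the lists hold no read numbers. Pooled lists are the authors' aggregate of the cycling replicates and are not independent of them.

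Genes and sequences were taken from RefSeq tables of GRCm38.p6, the same assembly as mm10. A peak counted for a gene when it shared at least 1 bp with the span extended by 1 kb, and covered length, fold enrichment and its percentile within the list were computed per library. The test of 3 against 3 or 4 libraries was an exact permutation test, two-sided (scipy 1.17.1, with Python 3.11.15, numpy 2.4.6, pandas 2.3.3, statsmodels 0.14.6 and matplotlib 3.10.9). The peak-to-gene functions were tested on simulated data of 500 made-up genes, with 0 wrong values. PSME3 and H3K4me3 libraries share replicate numbers. Over 19 autosomes their deviations in peak share had a Pearson r of 0.540, 0.555 and 0.275 for replicates 1, 2 and 3. However, replicate 1 of PSME3 also had 0.522 with replicate 3 of H3K4me3, and replicate 3 of PSME3 had 0.266 with replicate 1 of H3K4me3. Replicates 1 and 3 were therefore hardly told apart by this measure.

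The members and gene lists were chosen with earlier results of these data known. All 6 members are named, and from each other list up to 5 genes, those with the highest pooled PSME3 fold enrichment. Other genes named, such as Igfbp6 and those marked at one stage or not at all, were chosen after their values were seen. The alternatives were stricter q-values, other windows, overlap rules and measures of strength, shortened lists, the replicate block and each library left out.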

Additional observations from a re-analysis of the deposited data

How the results depend on the processing

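The difference in members with a peak between H3K4me3 and PSME3, 1, was the same in 10 alternatives, among them the replicate block, which pairs libraries of the same number (1, exact sign-flip p = 0.25, the smallest possible), and it ran from 1 to 1 as replicates were left out. It fell to 0 with as many H3K4me3 peaks as PSME3 peaks, since that setting keeps fewer peaks. The covered length at H19 kept its direction in all 13 alternatives, from 116 to 709 bp as single libraries were left out and at 807 bp against the frozen native day 2 library alone. It shrank to 164 bp within the gene span alone. The percentile difference kept its direction in 13 alternatives and reversed in 2, to -7.31 without replicate 2 and to -12.4 with lists as short as the shortest (the cause was not tested), and ranged from -7.31 to 17.1 as libraries were left out. The log2 ratio of the upstream to the gene peak, chosen after seeing the data as were its 9 alternatives, kept its direction, from 0.27 to 0.68 as libraries were left out. The percentile difference of the upstream peak ranged from 7.61 to 22.0 as libraries were left out. It could not be compared over all 7 libraries at equal list length, since the peak dropped out of cycling replicate 2 (alternatives chosen after seeing the data, as was that for distances). PSME3 on day 2 stayed at 0 members in all 4 alternatives. With 3 and 4 libraries no comparison could pass the threshold of the exact permutation test, and without read numbers the sites at which a peak could have been called cannot be known.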

Other observations

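Among 30 other imprinted genes, 20 had H3K4me3 in all 7 libraries, against 28.9% of all genes and 53.2% of protein-coding genes, and 3 had none (Grb10, Magel2 and Asb4), against 59.4%. PSME3 was at 4 of them in the pooled list, which reached 11.8% of all genes and 21.9% of protein-coding genes: Inpp5f, a phosphoinositide phosphatase, with a fold enrichment of 3.37, Gnas, the stimulatory G protein subunit, with 3.10, the ubiquitin ligase gene Ube3a with 3.05, and Blcap with 2.84. Inpp5f had a PSME3 peak in 3 of 3 cycling replicates and in 1 day 2 library, and was the only one of the 30 with more than 1 cycling replicate. H13 had a PSME3 peak in 1 of 3 cycling replicates but none in the pooled list. Of the other imprinted lncRNA genes, Kcnq1ot1, Airn and Peg13 had H3K4me3 in all 7 libraries, with pooled fold enrichments of 8.93, 9.51 and 6.24 beside 4.59 at H19, and Dio3os had none. Kcnq1ot1 overlaps Kcnq1 and Airn overlaps Igf2r, and each pair had the same strongest pooled peak value. Dcn, a proteoglycan gene, had H3K4me3 in 1 of 3 cycling and 4 of 4 day 2 libraries. None of these lists was tested.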
